A study of Homo sapiens with 4 samples.

Results

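Between the 2 siRNAs used here to lower CEBPB, 103 genes moved with siRNA-2 and stayed near the controls with siRNA-1. They comprise 66 genes raised and 37 genes lowered with siRNA-2, that is 0.622% and 0.348% of the 10617 genes whose mean normalised count in the deposited table reached 50, out of 57820 genes listed. Levels are in FPKM, fragments per kilobase of transcript at a common depth, and changes are differences of log2(FPKM + 1) from the mean of the control libraries, a scale on which changes of weakly expressed genes come out too small. A gene was taken where siRNA-2 differed from the controls by at least 0.7 and siRNA-1 by less than 0.3. These values chose the genes, so everything said below of their level with either siRNA is a description and has no test behind it.

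The cells were A549, an established human lung adenocarcinoma line in which NRF2 is active. There were 4 total RNA libraries: 2 of cells given control siRNA, 1 of cells given CEBPB siRNA-1 and 1 of cells given CEBPB siRNA-2. All cells received fresh medium 24 h after transfection and were harvested a further 24 h later. Whether the controls were separate cultures is not stated, so any spread between them may be technical, and neither siRNA had a replicate. What belongs to siRNA-2 therefore cannot be told apart from what belongs to its single library.

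CEBPB is a basic leucine zipper transcription factor that acts in inflammatory, metabolic and differentiation programmes. A small interfering RNA guides the cleavage of a matching messenger RNA, and can also lower other transcripts that pair with its short seed. Using different siRNAs against a single gene is the customary way to separate what follows from the loss of the target from what belongs to an individual siRNA. The siRNA sequences were not used here, so seed matches were not examined.

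The target was low with both siRNAs: CEBPB (ENSG00000172216.4) measured 78.7 and 80.9 FPKM after control siRNA, 12.9 after siRNA-1 and 10.97 after siRNA-2. That is a log2 change of -2.54 for siRNA-1 and of -2.75 for siRNA-2. Both siRNA libraries were thus far below both controls.

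The libraries summed to between 494066 and 528606 FPKM, and the authors' mean counts to 8341083, the only measure of depth used here. The mitochondrial genome accounted for 17.5% and 18.2% of FPKM after control siRNA, 16.9% after siRNA-1 and 14.4% after siRNA-2. The epithelial keratins KRT8 and KRT18 were at 568 FPKM or more in every library, while EPCAM, KRT19 and CLDN7 were at 7.38 FPKM or less. Summed epithelial markers were at 3600 and 5059 FPKM after control siRNA, 1824 after siRNA-1 and 2842 after siRNA-2, nearly all of it KRT8 and KRT18. The lung lineage markers NKX2-1 and SFTPB were listed at 0 in all 4 libraries, as were the leukocyte markers PTPRC, CD3E and LYZ. The endothelial markers VWF and CDH5 were at 0 in all 4 too. SFTPC, another lung lineage marker, was at 0.914 FPKM in control 1 and at 0 in the other libraries. Summed fibroblast markers were at 0.734 and 0.592 FPKM after control siRNA, 4.48 after siRNA-1 and 2.30 after siRNA-2, nearly all of it COL1A1. The part of these differences in the results below was not tested.

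Under the thresholds exchanged, 861 genes moved with siRNA-1 and stayed near the controls with siRNA-2, against the 103 described here. A further 510 genes passed 0.7 in the same direction with both siRNAs, 14 passed it in opposite directions, and 148 passed it with siRNA-2 while siRNA-1 lay between 0.3 and 0.7. Among all 10617 genes, 7.3% passed 0.7 with siRNA-2 (4.46% higher, 2.84% lower) and 19.3% with siRNA-1, while 48.2% lay within 0.3 with siRNA-1 and 1.67% differed by 0.7 or more between the controls. The change with siRNA-2 had a median of 0.88 (0.70 to 1.71) over the raised genes and of -0.81 (-2.16 to -0.70) over the lowered ones, beside 0.03 over all genes. In every one of the 103 genes the siRNA-2 library lay outside the range of the other 3 libraries, as the rule nearly forces, beside 25.4% of all genes for which it was above them and 17.8% for which it was below.

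**Figure D1:**
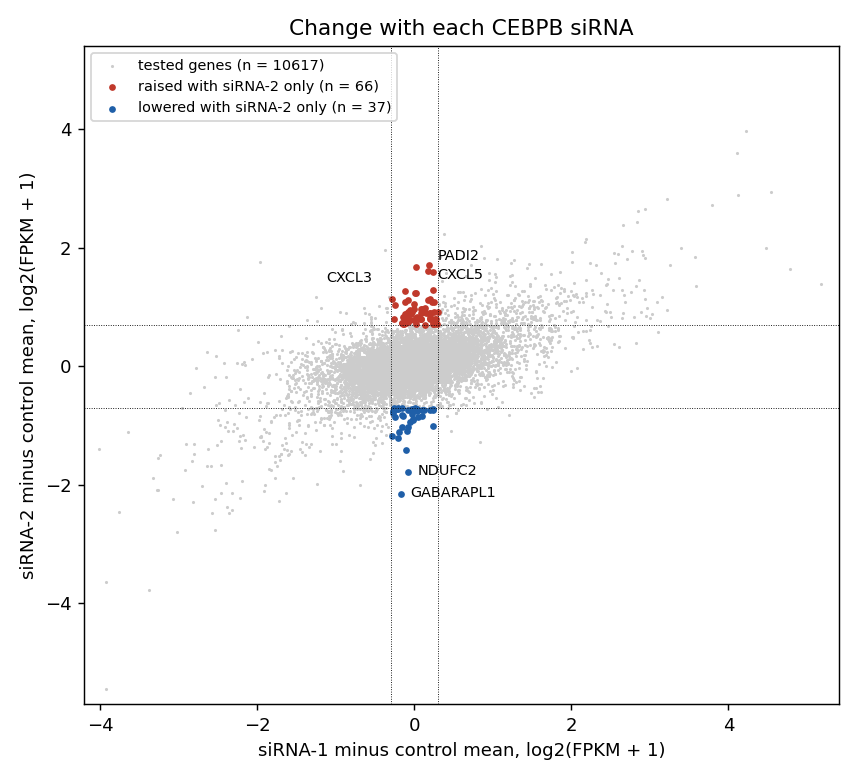
Log2 change from the control mean with siRNA-1 (horizontal) and with siRNA-2 (vertical) for the 10617 tested genes, on the log2(FPKM + 1) scale; coloured points are the 66 raised and 37 lowered genes. They fill the strips past 0.7 on the vertical axis and within 0.3 on the horizontal one because the rule places them there.

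In limma, a linear model with a spread shared across all genes, 66 of the 103 genes had an adjusted p below 0.05 for siRNA-2 against control (44 raised, 22 lowered), where 6.76% of all genes did (4.11% higher, 2.66% lower). For siRNA-2 against siRNA-1 the count was 60 (40 raised, 20 lowered), where 13.7% of all genes did (7.91% higher, 5.75% lower), and 47 genes met both. The rule used these same differences, so nothing is read from the counts. Standard errors of the change with siRNA-2 lay between 0.14 and 0.27 (median 0.21) and rest on the spread between the controls alone. A gene's own controls carry 1 degree of freedom in it and the spread shared across genes 10.2. An SE given below is thus mostly not the gene's own. The fit takes the siRNA libraries to vary no more or less than the controls.

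Raised with siRNA-2 were, first, 5 genes of chemokine, cytokine and NF-kappaB signalling. CXCL5, a neutrophil-attracting chemokine, was at 329 and 522 FPKM after control siRNA, 468 after siRNA-1 and 1256 after siRNA-2. Its siRNA-2 level was 2.95 times the control mean, a log2 change of 1.60 ± 0.23 (limma SE). The controls themselves differed by 0.67, and the change was 1.26 without control 1 and 1.93 without control 2. CXCL3, another neutrophil chemokine, was at 43.2 and 45.7 FPKM after control siRNA, 40.9 after siRNA-1 and 109 after siRNA-2 (log2 change 1.28 ± 0.14). Here the controls and siRNA-1 lay close together and siRNA-2 alone was high.

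MAP3K8, the kinase also known as TPL2 that carries signals from inflammatory receptors to ERK, was at 15.8 and 17.2 FPKM after control siRNA, 13.8 after siRNA-1 and 34.9 after siRNA-2 (1.04 ± 0.18). EBI3, a subunit of the cytokines IL-27 and IL-35, was at 15.03 and 14.5 FPKM after control siRNA, 15.8 after siRNA-1 and 29.6 after siRNA-2 (0.96 ± 0.18). NFKBID, an atypical inhibitor of NF-kappaB proteins, was at 6.69 and 6.55, 5.86 and 11.6 FPKM in the same order. All 5 genes were near the controls with siRNA-1 and above them with siRNA-2, and the log2 change in the deposited count-based table lay within 0.3 of the FPKM ratio for each of them.

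Of 22 tested genes in a list of NF-kappaB and inflammatory genes, which holds CXCL5 and CXCL3, 11 were called higher and 0 lower in limma with siRNA-2, and 14 higher and 1 lower with siRNA-1, where 4.11% and 13.3% of all genes were called higher. The list's median change was 0.67 with siRNA-2 and 0.76 with siRNA-1, beside 0.03 and -0.03 over all genes. Its counts include CXCL5 and CXCL3, which the rule chose, and are no independent support. CXCL1, a close relative of CXCL3, was at 266 and 273 FPKM after control siRNA, 188 after siRNA-1 and 427 after siRNA-2. IL8 measured 62.3 and 53.8 FPKM after control siRNA and was higher with siRNA-1 (268) than with siRNA-2 (138). Both genes were named after their values were seen, and CXCL1 was the higher with siRNA-2 where IL8 was the higher with siRNA-1, in 1 library each.

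CXCL5 and CXCL3 are adjacent among the protein-coding genes of chromosome 4. Their upstream sequences are shown because both hold a run matching an NF-kappaB motif (GGG, any 3 bases, TTCC), which, searched on both strands, is in 5.67% of 35116 RefSeq promoters. Each is the 250 bases before the gene's start in RefSeq, build GRCh38.p14, minus strand, at chr4:73998678-73998927 for CXCL5 and chr4:74038690-74038939 for CXCL3, with the match in capitals.
CXCL5: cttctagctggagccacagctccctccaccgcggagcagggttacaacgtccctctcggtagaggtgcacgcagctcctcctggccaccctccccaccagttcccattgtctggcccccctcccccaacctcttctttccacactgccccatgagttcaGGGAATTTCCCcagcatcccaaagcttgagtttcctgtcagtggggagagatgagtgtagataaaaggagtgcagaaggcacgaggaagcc
CXCL3: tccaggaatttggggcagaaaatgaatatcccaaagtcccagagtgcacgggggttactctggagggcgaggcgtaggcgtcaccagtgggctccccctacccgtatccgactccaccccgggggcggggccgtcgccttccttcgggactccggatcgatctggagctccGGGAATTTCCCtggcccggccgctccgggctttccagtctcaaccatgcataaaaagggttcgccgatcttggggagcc
The run begins 91 bases before the start in CXCL5 and 79 before it in CXCL3, and matches on both strands, the matches overlapping. Among the genes with a promoter in the table, the motif was in 6 of 52 raised ones (CXCL5, CXCL3, ANTXR1, MAP3K8, RBPMS2 and EBI3) and in 1 of 26 lowered ones (BDKRB2). The share over all promoters includes genes not tested here, so nothing is read from these counts beside it. A match is a description of letters, not evidence of binding.

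The 2 largest increases on the log2(FPKM + 1) scale were in genes of low level, whose change depends on the pseudocount. PADI2, a peptidylarginine deiminase that converts arginine to citrulline in proteins, was at 2.15 and 1.76 FPKM after control siRNA, 2.35 after siRNA-1 and 8.67 after siRNA-2, a log2 change of 1.71 ± 0.21. It has the smallest adjusted p among these genes in the authors' deposited table, 0.0812. NPTX1, a secreted neuronal pentraxin that clusters glutamate receptors, was at 0.986 and 1.35 FPKM after control siRNA, 1.19 after siRNA-1 and 5.87 after siRNA-2 (1.67 ± 0.21). With a pseudocount of 5 the change was 0.98 for PADI2 and 0.82 for NPTX1, below the 1.21 of CXCL3 and 1.10 of BCAM on that scale. Both genes fell outside the naming rule, which asks for a mean of at least 5 FPKM, and were chosen after their values were seen.

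NPTX1 stood among 7 raised genes best known from neurons or other excitable cells, with changes from 0.75 to 1.67. STMN3, a microtubule-destabilising stathmin, was at 1.54 and 2.29 FPKM after control siRNA, 2.40 after siRNA-1 and 7.67 after siRNA-2. DLG4, the postsynaptic scaffold PSD-95, was at 7.15 and 5.71 FPKM after control siRNA, 7.52 after siRNA-1 and 12.8 after siRNA-2. TNNT1, the slow skeletal troponin T, was at 45.4 and 48.5 FPKM after control siRNA, 55.3 after siRNA-1 and 79.5 after siRNA-2. In STMN3, DLG4 and TNNT1 siRNA-1 was also above both controls. It exceeded the control mean by 0.24, 0.20 and 0.23 on the log2 scale, short of the limit of 0.3. CACNA1H, a T-type calcium channel subunit, C1QL1, a synaptic organiser, and FBXO41 complete the set, at 1.56 to 8.54 FPKM in the 3 other libraries and 3.81 to 13.9 with siRNA-2. CACNA1H with siRNA-1 was above both controls too, by 0.27 over their mean. The deposited table's change was within 0.3 of the FPKM ratio for all 7. These sets by function, other than the pathway lists named as such, were drawn up after the values were seen.

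Of the 3 raised genes of WNT signalling and planar polarity, PRICKLE2, a cytoplasmic planar polarity protein, was at 2.83 and 3.15 FPKM after control siRNA, 3.72 after siRNA-1 and 8.68 after siRNA-2 (1.28 ± 0.22). The WNT receptor FZD3 was at 1.94 and 2.09 FPKM, 1.85 and 5.53 in the same order. APC2, a relative of the tumour suppressor APC, went from 0.848 and 1.02 FPKM in the controls to 2.76 with siRNA-2 and was at 0.925 with siRNA-1. For FZD3 and APC2 the authors' deposited table gives 0.19 and 0.57, against FPKM log2 ratios of 0.87 and 0.98. A separate list of WNT genes, 20 of them tested, held 0 of the raised and 0 of the lowered genes. With siRNA-2, 10 of the 20 were above the control mean and 10 below it. The list's median change was 0.01 with siRNA-2 and -0.39 with siRNA-1, beside 0.03 and -0.03 over all genes. As a whole that list thus did not rise with siRNA-2. PRICKLE2 lies on chromosome 3 beside another raised gene, ATXN7, with 1 protein-coding gene between them, PSMD6, whose change with siRNA-2 was 0.15. For ATXN7 the deposited change was -0.07, against an FPKM log2 ratio of 0.55.

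**Figure D2:**
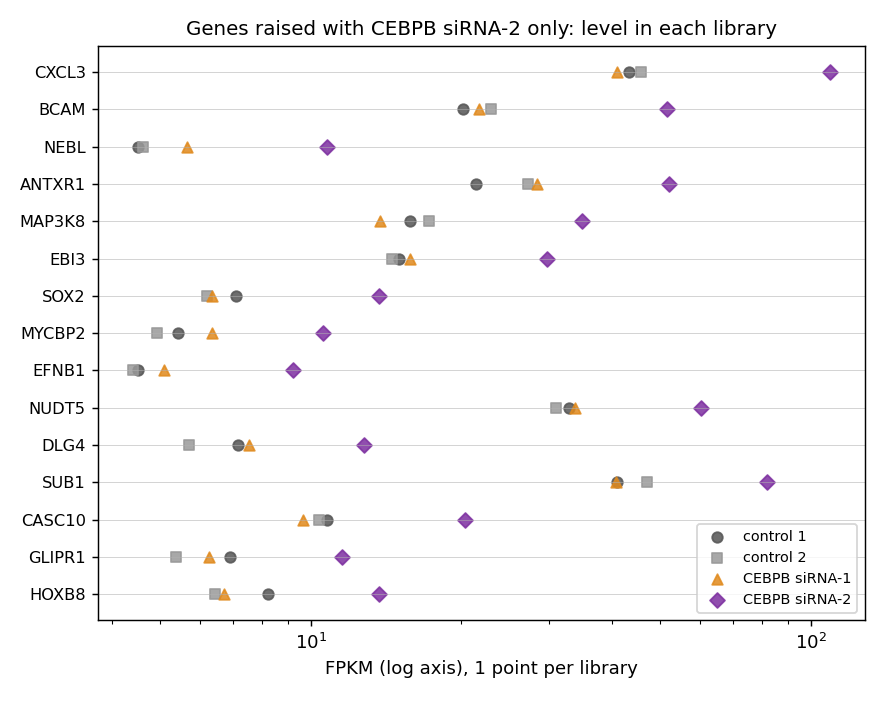
FPKM in each of the 4 libraries (log axis, 1 point per library) of the 15 raised genes with the largest changes under the naming rule, which leaves out CXCL5 and PADI2. The siRNA-2 point lies to the right of the other 3, at 109 for CXCL3 and 9.22 for EFNB1.

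Adhesion, matrix and cytoskeleton genes made up 15 of the 66 raised genes, with a median change of 0.86. BCAM, an immunoglobulin superfamily receptor for laminin, was at 20.1 and 22.9 FPKM after control siRNA, 21.7 after siRNA-1 and 51.6 after siRNA-2 (1.23 ± 0.17). ANTXR1, a collagen-binding membrane receptor, was at 21.4 and 27.2 FPKM after control siRNA, 28.3 after siRNA-1 and 52.0 after siRNA-2 (1.07 ± 0.18). NEBL, the actin-binding protein nebulette, was at 4.52 and 4.63 FPKM after control siRNA, 5.65 after siRNA-1 and 10.8 after siRNA-2. BCAM with siRNA-1 lay between the controls, while ANTXR1 and NEBL with siRNA-1 were above both.

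EFNB1, a membrane-bound ephrin, was at 4.51 and 4.41 FPKM after control siRNA, 5.08 after siRNA-1 and 9.22 after siRNA-2. The matrix genes FRAS1 and COL4A6 changed by 0.88 and 0.86, COL4A6 from 0.618 and 0.680 to 1.99 FPKM. TLN2, which links integrins to actin, went from 2.06 and 2.12 to 4.79 FPKM, and GLIPR1 from 6.88 and 5.37 to 11.6 FPKM. In 3 of the 15 genes, TLN2 among them (0.39 against 0.71), the deposited change was smaller than the FPKM ratio by at least 0.3. The desmosomal plaque gene PKP2 was at 3.32 and 5.68 FPKM after control siRNA, 3.88 after siRNA-1 and 8.53 after siRNA-2. Its change of 0.83 was 0.51 without control 1, below the limit for inclusion. BCAM and CEACAM19, a carcinoembryonic antigen family gene at 5.05 and 4.62 FPKM in the controls and 8.97 with siRNA-2, lie on chromosome 19 with 3 protein-coding genes between them, among them BCL3 (change 0.53).

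Among 11 raised genes of transcription and chromatin, SOX2, a transcription factor of stem cells and foregut epithelium, was at 7.10 and 6.197 FPKM after control siRNA, 6.35 after siRNA-1 and 13.7 after siRNA-2 (0.95 ± 0.22). The homeobox gene HOXB8 was at 8.22 and 6.42, 6.69 and 13.7 FPKM in the same order. For these genes the deposited table gives log2 changes of both siRNAs over control of 0.56 and 0.48, against FPKM ratios on the same contrast of 0.59 and 0.48.

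For others of this set the deposited count-based table does not show the rise that FPKM shows. HDAC2, a class I histone deacetylase, was at 26.6 and 24.3 FPKM after control siRNA, 25.8 after siRNA-1 and 61.1 after siRNA-2, a log2 change of 1.23 ± 0.16. The mean of both siRNA libraries over the mean of both controls is 0.77 on the log2 scale in FPKM, while the authors' deposited table gives -0.16 for the same contrast. KANSL2, a subunit of a histone acetyltransferase complex, was at 7.71 and 7.63 FPKM after control siRNA, 7.004 after siRNA-1 and 17.4 after siRNA-2, with an FPKM log2 ratio of 0.67 against -0.02 in the authors' deposited table. SUB1, a transcriptional coactivator also called PC4, was at 40.8 and 47.1, 40.7 and 81.7 FPKM in the order of the libraries above. In 8 of these 11 genes the 2 sources differed by at least 0.3, against 0 of the 5 chemokine and NF-kappaB genes.

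Ribosomal and RNA-binding genes gave the same picture in part. RPL38, a protein of the large ribosomal subunit, was at 243 and 373 FPKM after control siRNA, 247 after siRNA-1 and 664 after siRNA-2, with 0.57 as the FPKM log2 ratio and -0.01 in the authors' deposited table. PPIG, a nuclear cyclophilin, was at 11.95 and 12.8 FPKM after control siRNA, 14.4 after siRNA-1 and 28.2 after siRNA-2, with 0.78 and -0.05. RPS18, of the small subunit, was at 311 and 344 FPKM after control siRNA, 386 after siRNA-1 and 533 after siRNA-2 and sits just inside the limit at 0.70. RPL38 and RPS18 have near-identical pseudogene copies that can share their reads, which leaves their levels uncertain.

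Metabolic, mitochondrial and peroxisomal genes were 11 of the raised ones. NUDT5, a hydrolase of ADP-ribose, was at 32.8 and 30.9 FPKM after control siRNA, 33.8 after siRNA-1 and 60.2 after siRNA-2 (0.90 ± 0.15). PDK1, the kinase that restrains pyruvate dehydrogenase, was at 1.38 and 1.77 FPKM after control siRNA, 1.90 after siRNA-1 and 4.59 after siRNA-2 (1.12 ± 0.21). The authors' deposited table gives 0.01 for NUDT5 and 0.08 for PDK1, against FPKM log2 ratios of 0.56 and 1.04. In 6 of the 11 genes the sources differed by at least 0.3. TIMM9, a chaperone of the mitochondrial intermembrane space, changed by 0.80 but by 0.45 without control 1, PAM, which amidates peptides, by 0.74 but 0.43 without control 2, and the thromboxane synthase TBXAS1 by 0.72 but 0.44 without control 2.

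Remaining raised genes were 3 non-coding or clone-named ones and 7 of other or unclear role. MYCBP2, a large ubiquitin ligase whose deposited log2 change is 0.21 against an FPKM ratio of 0.71, was at 5.43 and 4.93 FPKM after control siRNA, 6.35 after siRNA-1 and 10.6 after siRNA-2. CASC10 was at 10.8 and 10.4, 9.64 and 20.3 FPKM, so that siRNA-1 was below and siRNA-2 above the controls. The long non-coding LINC00973 was at 6.05 and 4.30 FPKM after control siRNA, 5.10 after siRNA-1 and 11.7 after siRNA-2.

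Among the 37 lowered genes, 9 act on sterols and lipids, with a median change of -0.85. MSMO1, which removes methyl groups from sterol intermediates, was at 23.2 and 16.9 FPKM after control siRNA, 18.5 after siRNA-1 and 8.74 after siRNA-2 (-1.09 ± 0.21). HSD17B7, a ketoreductase of the same pathway with near-identical pseudogene copies, was at 6.53 and 6.45 FPKM after control siRNA, 7.84 after siRNA-1 and 2.72 after siRNA-2 (-1.01 ± 0.22). In both the siRNA-2 library was by far the lowest.

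For MSMO1 the authors' deposited table gives -0.57 over both siRNAs, against an FPKM ratio of -0.56. For HSD17B7 it gives -0.02 against -0.30, so that the count-based table shows hardly any fall. NPC1, which exports cholesterol from lysosomes, was at 18.8 and 13.7 FPKM after control siRNA, 16.2 after siRNA-1 and 9.52 after siRNA-2, just inside the limit at -0.70 and at -0.49 without control 1.

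ACSL4, which couples arachidonic acid to coenzyme A, was at 29.8 and 28.3 FPKM after control siRNA, 25.3 after siRNA-1 and 13.0 after siRNA-2 (-1.10 ± 0.17). LRP8, a receptor of the LDL receptor family, was at 34.5 and 30.2 FPKM after control siRNA, 27.1 after siRNA-1 and 17.4 after siRNA-2 (-0.85 ± 0.17). For both, siRNA-1 was also below the controls, by 0.19 and 0.24 on the log2 scale. The authors' deposited table gives -0.61 for ACSL4 and -0.27 for LRP8, against FPKM log2 ratios of -0.60 and -0.54. ACSS2, which makes acetyl coenzyme A from acetate, and PPAP2A, a lipid phosphate phosphatase, changed by -0.76 and -0.74.

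The wider pathway can be read from a list of 25 cholesterol synthesis and uptake genes, all tested, of which 4 are among the 103, MSMO1 and HSD17B7 included. With siRNA-2, 23 of the 25 were below the control mean, and 14 with siRNA-1, beside 45.7% and 53.2% of all genes. The median change was -0.46 with siRNA-2 and -0.03 with siRNA-1. In limma 7 were called lower and 0 higher with siRNA-2 against control, where 2.66% of all genes were called lower, and with siRNA-1 2 were called higher and 1 lower, where 13.3% and 13.8% of all genes were. For siRNA-2 against siRNA-1, 8 were called lower and 0 higher, where 5.75% of all genes were called lower. Control 2 was below control 1 for 19 of the 25, beside 60.4% of all genes, and the part of that difference in the list's values was not tested.

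Of the list's genes outside the 103, HMGCS1, an early enzyme of the pathway, was at 32.5 and 30.5 FPKM after control siRNA, 50.5 after siRNA-1 and 21.3 after siRNA-2, so that the siRNA libraries lay on opposite sides of the controls. Since the 103 genes were chosen knowing which lay near the controls with siRNA-1, the list's counts are given with its 4 members included and are no independent support.

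**Figure D3:**
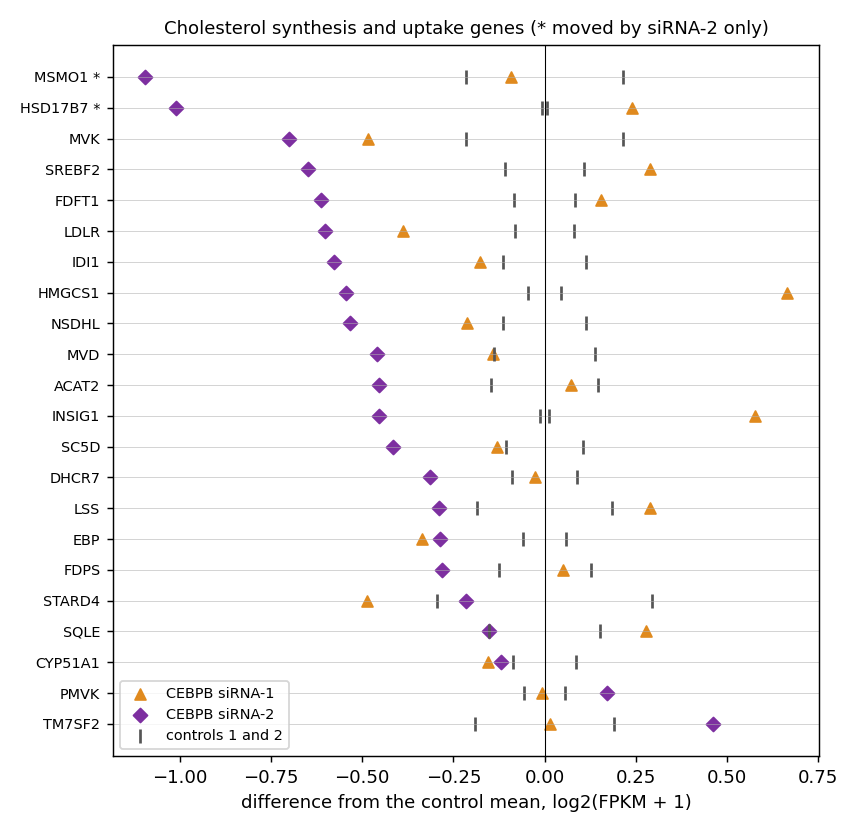
Log2 change from the control mean, log2(FPKM + 1) scale, with each siRNA for 22 of the 25 cholesterol synthesis and uptake genes, with ticks for the controls and a star for genes moved by siRNA-2 only. With siRNA-2, 20 of the 22 points lie below 0.

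Upstream sequences of MSMO1 and HSD17B7 are shown because the motif CCAAT, bound by NF-Y, accompanies sterol regulatory elements in many sterol genes. The 250 bases before the start, RefSeq build GRCh38.p14, plus strand, are at chr4:165327419-165327668 for MSMO1 and chr1:162790452-162790701 for HSD17B7, with CCAAT or its reverse complement in capitals.
MSMO1: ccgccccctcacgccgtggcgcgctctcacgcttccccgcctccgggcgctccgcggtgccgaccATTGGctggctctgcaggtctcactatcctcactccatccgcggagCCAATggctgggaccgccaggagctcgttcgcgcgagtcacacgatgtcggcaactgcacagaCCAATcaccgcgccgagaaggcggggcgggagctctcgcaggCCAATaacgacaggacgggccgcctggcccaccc
HSD17B7: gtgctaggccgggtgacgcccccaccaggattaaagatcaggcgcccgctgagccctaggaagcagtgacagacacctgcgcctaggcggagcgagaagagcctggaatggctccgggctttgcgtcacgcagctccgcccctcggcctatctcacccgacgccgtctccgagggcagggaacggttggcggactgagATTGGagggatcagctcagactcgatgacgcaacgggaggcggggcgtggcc
MSMO1 holds 4 matches, beginning 185, 139, 76 and 34 bases before the start, and HSD17B7 holds 1, beginning 52 bases before it. The motif, searched on both strands, was in 32.0% of all RefSeq promoters, in 5 of the 26 lowered genes with a promoter in the table and in 15 of the 52 raised ones. Searched for in the same way, the sterol regulatory motif TCACNCCAC was in neither sequence, and was found in SOX2 and ECHDC2 and in 0.883% of all promoters. The C/EBP motif TTGCNNAA was in 4 of 52 raised genes (NEBL, LINC00973, IMMP2L and TNNT1) and 1 of 26 lowered ones (ARHGAP24), beside 9.05% of all promoters. GGGCGG, the GC box, was in 34 and 19 of them, beside 42.6% of all promoters. These shares are over 35116 RefSeq promoters, which include genes not tested here. Shares over the 10617 tested genes were not computed, so nothing is read from the differences.

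GABARAPL1, an ATG8-family protein of the autophagosome membrane, was the most lowered of the 103 genes. It was at 22.6 and 14.7 FPKM after control siRNA, 16.2 after siRNA-1 and 3.33 after siRNA-2, a log2 change of -2.16 ± 0.25. The controls differed by 0.59, and the change was -1.86 without control 1 and -2.45 without control 2, so that siRNA-2 was far below either. The authors' deposited table gives -0.79 over both siRNAs against an FPKM ratio of -0.94. CTSA, a lysosomal carboxypeptidase, was at 90.6 and 68.4 FPKM after control siRNA, 68.2 after siRNA-1 and 47.5 after siRNA-2, and its change of -0.72 was -0.52 without control 1.

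A list of lysosomal and autophagy genes, which holds GABARAPL1, CTSA and NPC1, had 29 tested genes. With siRNA-2, 24 of them were below the control mean, and 15 with siRNA-1, beside 45.7% and 53.2% of all genes. The median change was -0.25 with siRNA-2 and -0.01 with siRNA-1. In limma 6 were called lower and 0 higher with siRNA-2, where 2.66% and 4.11% of all genes were. With siRNA-1, 4 were called lower and 3 higher, where 13.8% and 13.3% of all genes were. Control 2 was below control 1 for 27 of the 29, beside 60.4% of all genes. The part of that difference in these values was not tested. The counts include GABARAPL1, CTSA and NPC1, which the rule chose, and are no independent support.

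NDUFC2, a subunit of respiratory complex I, was at 133 and 152 FPKM after control siRNA, 135 after siRNA-1 and 40.4 after siRNA-2, a log2 change of -1.79 ± 0.14. Its exons overlap those of a readthrough transcript, NDUFC2-KCTD14, on the same strand, and the authors' mean count was 101. The authors' deposited table gives -0.24 for NDUFC2 against an FPKM log2 ratio of -0.70, so its level with siRNA-2 is uncertain. SLC25A35, a mitochondrial carrier (deposited log2 change -0.25, FPKM ratio -0.56), was at 9.89 and 7.46 FPKM after control siRNA, 8.07 after siRNA-1 and 3.73 after siRNA-2 (-1.02 ± 0.23). SLC16A4, a monocarboxylate transporter, was at 23.0 and 26.4, 24.4 and 12.6 FPKM (-0.91 ± 0.18).

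AIFM2, the ferroptosis suppressor that reduces coenzyme Q, was at 24.5 FPKM in both controls, 20.9 after siRNA-1 and 14.4 after siRNA-2. GLUL, which makes glutamine, went from 4.20 and 3.64 to 1.97 FPKM with siRNA-2 and was at 4.02 with siRNA-1. The enoyl-CoA hydratase relative ECHDC2 changed by -0.79 but by -0.46 without control 1. For it, too, the authors' deposited table gives the smaller change, -0.25 against -0.58 in FPKM.

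**Figure D4:**
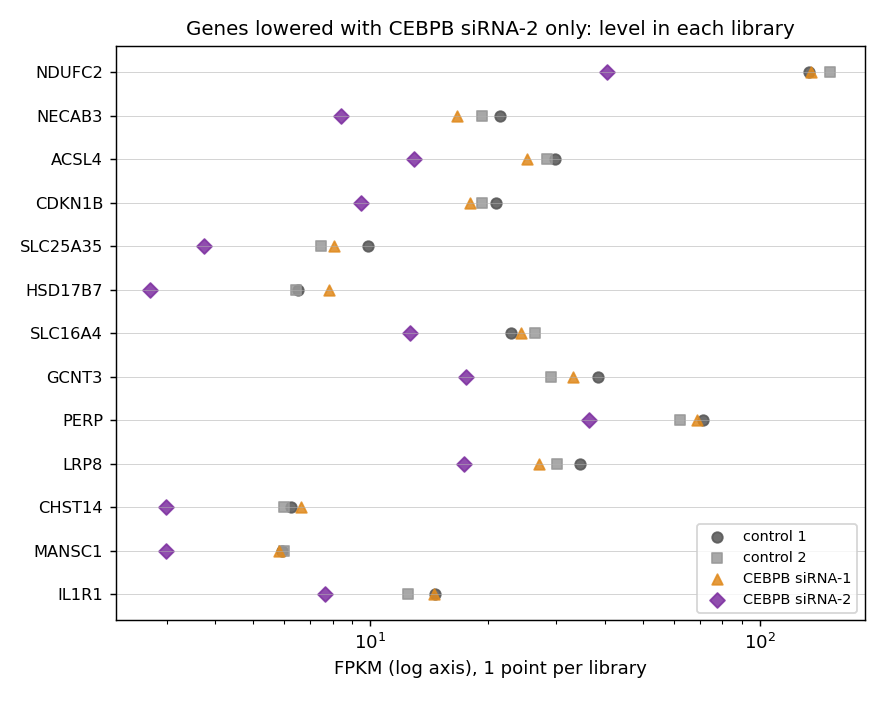
FPKM in each of the 4 libraries (log axis, 1 point per library) of 13 of the 15 lowered genes with the largest changes under the naming rule, which leaves out GABARAPL1. The siRNA-2 point lies to the left of the other 3, at 40.4 for NDUFC2 and 2.72 for HSD17B7.

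Growth regulators were 4 of the lowered genes. CDKN1B, the cyclin-dependent kinase inhibitor p27, was at 21.02 and 19.4 FPKM after control siRNA, 18.1 after siRNA-1 and 9.44 after siRNA-2 (-1.02 ± 0.18). The DNA-binding proteins ARID3A and LIN54, the latter a subunit of a cell cycle repressor complex, changed by -0.93 and -0.76. For CDKN1B the authors' deposited table gives -0.56, against an FPKM ratio of -0.55. CDKN1B lies on chromosome 12 near MANSC1, another lowered gene, at 5.93 and 6.02 FPKM after control siRNA, 5.81 after siRNA-1 and 2.99 after siRNA-2. Of the 4 protein-coding genes between them, CREBL2 changed by -0.47 with siRNA-2 and DUSP16 by -1.16 with siRNA-2 and -1.56 with siRNA-1.

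Receptors and ligands were 3 of the lowered genes. BDKRB2, the bradykinin B2 receptor, was at 8.42 and 5.90 FPKM after control siRNA, 5.96 after siRNA-1 and 2.47 after siRNA-2 (-1.22 ± 0.25), and was chosen after its values were seen. IL1R1, the signalling receptor of interleukin-1, was at 14.7 and 12.5 FPKM after control siRNA, 14.6 after siRNA-1 and 7.67 after siRNA-2 (-0.75 ± 0.20). CLCF1, a cytokine of the IL-6 family, changed by -0.72. In IL1R1 and BDKRB2 the siRNA-1 library lay within the range of the controls.

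PERP, a tetraspan protein of desmosomes, was at 71.5 and 62.2 FPKM after control siRNA, 69.05 after siRNA-1 and 36.4 after siRNA-2 (-0.85 ± 0.15). E-cadherin, CDH1, was at 20.2 and 32.1 FPKM after control siRNA, 22.8 after siRNA-1 and 14.02 after siRNA-2 (-0.82 ± 0.24). For CDH1 the gap between the controls, 0.65, was most of the change, which was -0.49 without control 2. Thus PKP2 was raised and PERP and CDH1 lowered among junction genes. SPEF2 changed by -0.71 but by -0.43 without control 1, and LIMA1, an actin-bundling protein, sat just inside the limit at -0.70.

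In the glycan enzymes and the remaining lowered genes, too, siRNA-2 was the lowest library, as the rule nearly forces. GCNT3, which builds mucin core glycans, was at 38.4 and 28.998 FPKM after control siRNA, 33.1 after siRNA-1 and 17.6 after siRNA-2. CHST14, a dermatan sulfotransferase, was at 6.26 and 5.99, 6.62 and 2.99 FPKM. Of the remaining genes, FAM177A1, RUFY3 and SNHG11 had deposited changes of opposite sign (0.11, 0.02 and 0.09). Their FPKM log2 ratios were -0.32, -0.19 and -0.25. HS1BP3 and MANSC1 were lower in the deposited table too, at -0.33 and -0.73. NECAB3, a calcium-binding protein, was at 21.5 and 19.4 FPKM after control siRNA, 16.6 after siRNA-1 and 8.43 after siRNA-2, with siRNA-1 also lower and close to the limit at -0.28, and its deposited log2 change was -0.31 against an FPKM ratio of -0.71.

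How far the values rest on the quantification can be read from the authors' deposited table, which was made from counts and compares both siRNAs with both controls. It calls 0 of the 103 genes at an adjusted p below 0.05, where 5.03% of all genes are called, and 12 have an unadjusted p below 0.05 (11 raised, 1 lowered). That contrast averages a library that moved with one that did not. On the same contrast computed from FPKM, the median log2 ratio was 0.61 over the raised genes and -0.47 over the lowered ones, and the deposited table's medians were 0.41 and -0.37. In 70 of the 103 genes the 2 sources lay within 0.3 of each other, and in 33 (24 raised, 9 lowered) they did not. The 33 are 32.0% of the 103 genes, beside 6.18% of all genes, and the genes were chosen on the FPKM side of this comparison. All 33 differed in the direction that makes the change smaller or opposite in the deposited table. Over all tested genes, 548 of the 656 beyond 0.3 also differed against the direction of their siRNA-2 change. The deposited sign was opposite for 13 genes (8 raised, 5 lowered), with HDAC2, RPL38, PPIG and KANSL2 the largest by FPKM change. The reason for the difference was not tested.

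**Figure D5:**
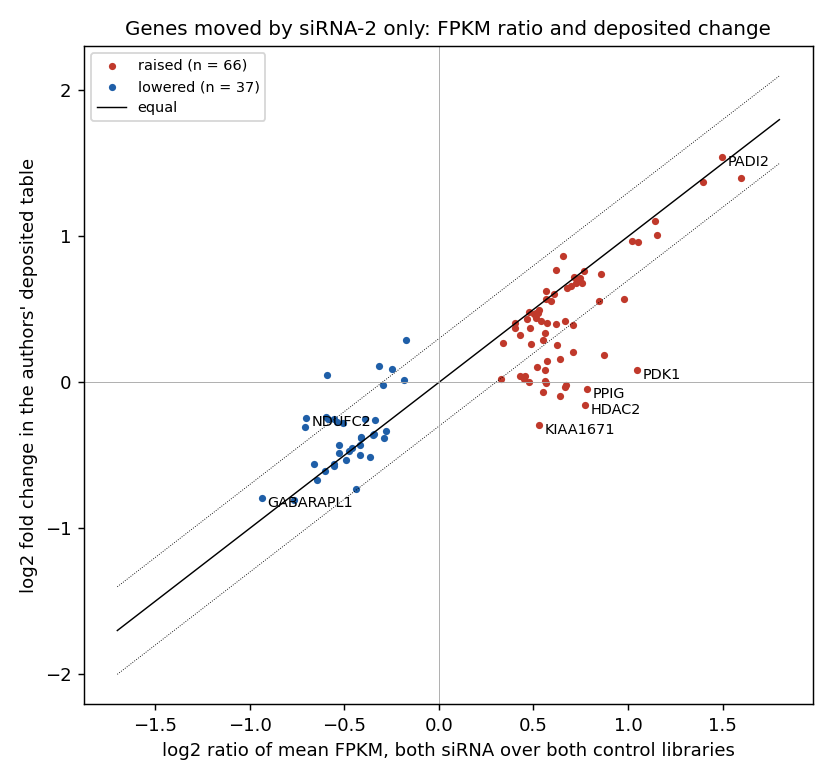
Log2 ratio of both siRNA libraries over both controls from FPKM (horizontal) against the log2 change in the authors' deposited count-based table (vertical) for the 103 genes, with lines at a difference of 0.3. In 70 genes the point lies between the lines; the 33 outside them, HDAC2 and NDUFC2 included, all lie on the side of the smaller or opposite change.

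The spread between the controls also differed with direction. The controls differed by at least 0.4 on the log2 scale in 13.6% of the raised and 32.4% of the lowered genes, beside 10.6% of all genes. Control 2 was below control 1 in 31 of the 37 lowered genes (83.8%), in 34 of the 66 raised ones (51.5%) and in 60.4% of all genes. Against each control taken alone, 54 of the 103 genes met the rule (38 raised, 16 lowered), and 35 of these also had a deposited change within 0.3 of the FPKM ratio (23 raised, 12 lowered).

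At the edges of the rule the genes just inside and just outside hardly differed. SMYD3 and RPS18 were taken at 0.70, and GABPB1 at 0.69 and LUCAT1 at 0.70 fell short. On the lowered side NPC1 and LIMA1 were taken at -0.70, while FLCN at -0.69 and EXOSC8 at -0.70 were not. LINC00662 and ARHGAP23 were taken with a change of 0.30 with siRNA-1, where PDE10A and CYP26B1 missed at 0.30, and BAMBI and CYP4F11 missed on the lowered side where LIN54 and NECAB3 were taken.

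Gene type, length and base content were not used by the rule, and are given without a test. Of the 103 genes, 102 matched a GENCODE 29 identifier and 98 were protein coding. The longest transcript had a median length of 3862 bases for raised and 4290 for lowered genes, beside 3844 over all, and the median GC content was 49.4% and 47.3%, beside 47.8%. The median of the mean FPKM was 7.17 for raised and 13.4 for lowered genes, beside 13.2 over all. Exons overlapped those of another gene on the same strand in 12 of the genes (11.8%, beside 15.3%), which leaves their counts uncertain. These are SCLY, ATXN7, PEX19, CEACAM19, NFKBID, ZNF343, CLCF1, PPAP2A, SNHG11, ACSL4, BDKRB2 and NDUFC2.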

How the data were processed

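Per the labels' protocols, total RNA of A549 cells was made into strand-specific libraries and read as 76-base single-end reads. Per the submitters' processing notes, the tools were STAR 2.7.0d, StringTie 2.1.4, HTSeq 0.13.5 and DESeq2 1.26.0 with build hg19; which step each served is not given in the sources used here. The deposited table gives 1 value per library, taken as FPKM because its gene columns have StringTie's form and do not sum to a common total; the header names no unit. The other deposited columns are, per the file headers, the authors' signal (mean normalized count), their log2 change for both siRNAs against both controls with its standard error, the Wald statistic (a score), and p-values, raw and adjusted, by the authors. No counts of single libraries were used.

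From the FPKM, log2(FPKM + 1) was computed, and the genes were taken by the thresholds of 0.7 and 0.3 and a mean count of at least 50. limma 3.58.1 in R 4.3.3, with an intensity trend, was fitted to 3 groups over 10617 genes with Benjamini-Hochberg adjustment at 0.05. The controls supply its 1 residual degree of freedom, and it was tested on simulated data. Named were, per direction, up to 15 genes with the largest change, a mean of at least 5 FPKM, controls within 0.4 and a deposited change of the same sign; then members of the lists, the genes at each threshold and up to 4 genes of opposite deposited sign. Some genes that the rule names are not reported here. The text also names genes chosen once their values had been seen. The 103 genes, the 33 gene lists (14 of the 103 genes are in at least 1 of 7 of them, 89 in none) and the sets by function were chosen with earlier results of these data known. Annotation of GENCODE 29, another build, was used by gene identifier only; promoters are RefSeq's and 78 of the 103 genes matched. The alternatives tried changed the pseudocount, the filter, the scaling, the thresholds, the trend and the controls.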

Additional observations from a re-analysis of the deposited data

Results flagged for a closer look

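4 genes of the cholesterol list outside the 103 differed between the siRNAs in the limma fit over all genes. They were flagged on this same contrast, on which 5.75% of all genes were called lower with siRNA-2. A negative value means lower with siRNA-2 than with siRNA-1. HMGCS1 differed by -1.21 on the log2(FPKM + 1) scale (adjusted p = 0.0019), its change from the controls being 0.66 for siRNA-1 and -0.54 for siRNA-2. INSIG1, the sterol sensor of the endoplasmic reticulum, differed by -1.03 (adjusted p = 0.010), from 0.58 with siRNA-1 and -0.45 with siRNA-2. SREBF2, the transcription factor of sterol genes, differed by -0.94 (adjusted p = 0.012), from 0.29 and -0.65. FDFT1, squalene synthase, differed by -0.77 (adjusted p = 0.015), from 0.16 and -0.61. Each siRNA has 1 library, so these differences are between libraries, and the adjusted p-values rest on the spread between the controls, shared across genes. All 4 were lower with siRNA-2 than in either control.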

How the results depend on the processing

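No paired analysis was possible because each siRNA has 1 library. The counts of raised (66) and lowered (37) genes depend on the rule. With a pseudocount of 5 they were 31 and 13, of which 21 and 12 were among the 103 genes. On that scale 43 of the 103 changes shrank by over 1.5 times. With a pseudocount of 0.1 they were 97 and 63, of which 58 and 35 were among the 103. With a mean count of at least 200 they were 29 and 23, and with at least 20 they were 87 and 44. With library medians made equal they were 60 and 42. With a limit of 1 for siRNA-2 they were 17 and 10, and with 0.15 or 0.5 for siRNA-1 38 and 19, or 103 and 65. Without control 1 there were 92 raised and 38 lowered, of which 51 and 22 were among the 103. Without control 2 there were 81 and 63, of which 47 and 25 were. Keeping only genes whose deposited change is within 0.3 of the FPKM ratio, chosen after seeing the data, left 42 raised and 28 lowered. Of the 103 genes, 15 met the rule with its thresholds kept under all 7 changes of pseudocount (0.1, 5), mean count (20, 200), library medians and controls. Among the 15 were CXCL3, HDAC2, BCAM, PPIG, NEBL, NUDT5, SUB1, CASC10, TNNT1, ACSL4, CDKN1B, SLC16A4, PERP and FAM177A1. All 7 changes rest on the same FPKM values. In the deposited count-based table HDAC2, PPIG and FAM177A1 had the opposite sign (-0.16, -0.05 and 0.11). NUDT5 and SUB1 were at 0.01 and 0.005 there. With a mean count of at least 20, limma called 477 genes for siRNA-2 against control (718 at 50) and 954 for siRNA-2 against siRNA-1 (1450 at 50). With no filter it called 889 for siRNA-2 against control, 99.6% of them higher against 60.7%. Of the 103 genes, limma called 66 for siRNA-2 against control, but 34 at a mean count of 20, 0 with no filter and 102 with library medians made equal, and for siRNA-2 against siRNA-1 60, but 28 and 0 with these filters. limma without a control has no residual degree of freedom and was not run. The cause of these changes was not tested. Counts per library were not used, so depth limits per gene are unknown.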
